A study of Mus musculus with 12 samples.

Results

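Kcnj8, Abcc9, Rgs5, Cspg4, Acta2, Tagln, Myh11 and Des are 8 genes known from the cells that wrap vessels, pericytes and smooth muscle. They were looked up by symbol among the 17362 genes of the deposited expression table, and all 8 were listed and passed the filter on low values. RNA was sequenced from 4 populations of vessel cells sorted from crushed tibia, femur and iliac bone of untreated B6 mice, with 3 libraries each. CD200-high capillaries were gated as CD200Hi, Sca1+, CD31+, EMCN- and CD45-. Type H vessels, which are rich in endomucin, were gated as EMCN+, Sca1+, CD31+ and CD45-. The gate of the other arterial cells was CD200-, Sca1+, CD31+ and CD45-, and that of sinusoidal cells was CD31+, Sca1+ and CD45-. The labels number the mice 1 to 3 in every population and state that 6 mice gave the triplicates. They do not say which mice were combined, and as labelled the sinusoidal gate excludes none of the other 3 populations.

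Kir6.1, the protein of Kcnj8, forms the pore of an ATP-sensitive potassium channel, and SUR2, the protein of Abcc9, is its regulatory subunit. The channel opens when ATP is low or when vasodilators act on it, which hyperpolarises the cell. Pericytes sit on capillaries and smooth muscle cells surround arteries, and mural cells of the brain are known for Kcnj8, Abcc9, Rgs5 and Cspg4. Acta2, Tagln and Myh11 encode parts of the contractile apparatus, and Des encodes the filament desmin of muscle. All these genes are used as signs of mural cells in a preparation, while the sorts here selected for CD31, an endothelial antigen.

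The libraries held 7.33 to 21.6 M listed reads (M, 1e6 reads). Values are counts per 1e6 reads (CPM) of an effective library size, or their log2 with 0.5 read added to each count. The 8 endothelial marker genes, Cdh5, Pecam1, Kdr, Tie1, Tek, Esam, Erg and Cldn5, summed to 1924 to 3721 CPM in CD200-high cells, 4992 to 5915 CPM in type H and 1033 to 1340 CPM in arterial libraries. They summed to 170 to 205 CPM in the libraries labelled sinusoidal. Ly6a, the transcript of Sca1, was at 12.2 to 29.2 CPM in those libraries, while its lowest value elsewhere was 368 CPM, which goes against their Sca1+ label. They are therefore called the libraries labelled sinusoidal below. Emcn was at 230 to 409 CPM in CD200-high cells, gated EMCN-, against 508 to 527 CPM in type H and 68.6 to 128 CPM in arterial libraries. Ptprc, the transcript of CD45, was at 144 to 198 CPM in arterial libraries, gated CD45-. It was at 25.8 to 63.2 CPM in CD200-high cells, 11.7 to 24.6 CPM in type H and 76.0 to 116 CPM in those labelled sinusoidal. Osteoblast markers summed to 72475 to 105229 CPM in CD200-high cells, 145 to 877 CPM in type H, 8069 to 9488 CPM in arterial libraries and 4172 to 9906 CPM in those labelled sinusoidal. Since these are bulk samples, fewer cells of a type and less RNA per cell cannot be told apart.

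The promoters of the 2 channel genes and of Acta2 are shown because Kcnj8 and Abcc9 were high in the same libraries while Acta2 was not. RefSeq (GRCm38.p6) holds promoters for 6 of the 8 genes, all but Tagln and Myh11. Each line gives the 250 bases before the annotated start, 5′ to 3′ on the strand of the gene, and capitals mark matches to a relaxed CArG box, the site bound by serum response factor. Kcnj8 lies at chr6:142571615-142571864 (minus strand), Abcc9 at chr6:142702275-142702524 (minus strand) and Acta2 at chr19:34255374-34255623 (minus strand).
Kcnj8: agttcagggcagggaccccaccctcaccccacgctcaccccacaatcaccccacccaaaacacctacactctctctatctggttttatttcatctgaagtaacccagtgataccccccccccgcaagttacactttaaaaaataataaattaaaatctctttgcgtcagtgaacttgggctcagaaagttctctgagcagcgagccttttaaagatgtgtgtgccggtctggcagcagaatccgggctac
Abcc9: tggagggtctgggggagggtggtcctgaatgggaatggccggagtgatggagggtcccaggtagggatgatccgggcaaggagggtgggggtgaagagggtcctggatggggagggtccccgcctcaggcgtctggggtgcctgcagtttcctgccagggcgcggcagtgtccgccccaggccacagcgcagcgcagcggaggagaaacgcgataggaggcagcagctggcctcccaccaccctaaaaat
Acta2: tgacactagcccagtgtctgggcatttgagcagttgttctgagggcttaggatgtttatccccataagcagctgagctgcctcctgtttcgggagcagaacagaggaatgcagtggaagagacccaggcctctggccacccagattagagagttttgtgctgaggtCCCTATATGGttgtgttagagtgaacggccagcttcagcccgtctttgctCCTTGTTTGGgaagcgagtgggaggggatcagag
A CArG box was searched as CC, a core of 6 A or T and GG, and in relaxed form with at most 1 G or C in the core. The relaxed form matched on either strand in 8.59% of 32851 promoters of the same length, and the strict form in 1.47%. Of the 6 promoters, the relaxed form matched in Acta2, with CCCTATATGG at -84 to -75 and CCTTGTTTGG at -34 to -25 from the start, and the strict form in none. TATAAA and CCGGAA, searched on both strands and present in 12.4% and 12% of all promoters, were in none of the 6. GC content was 49.2% in the Kcnj8 promoter and 66.8% in that of Abcc9. The Kcnj8 and Abcc9 genes follow each other on chromosome 6 on the same strand, with 0 genes between them in RefSeq.

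The 2 channel genes were far higher in type H than in any other population. Kcnj8 had 96.2, 114 and 60.4 CPM in replicates 1, 2 and 3 of CD200-high, 1666, 1424 and 1554 CPM in type H, 2.80, 22.6 and 5.53 CPM in arterial libraries, and 5.01, 7.09 and 5.22 CPM in those labelled sinusoidal. Type H stood above all other libraries, CD200-high came next without overlap, and the arterial libraries overlapped those labelled sinusoidal. In log2 CPM the means were 6.45 ± 0.48, 10.59 ± 0.11, 2.83 ± 1.53 and 2.52 ± 0.27 in that order of populations (SD, n = 3 each). CD200-high was lower than type H by a log2 difference of -4.15 ± 0.58 (SE, limma, adjusted p = 0.000652) and 12.3-fold higher than arterial (log2 difference 3.62 ± 0.58, adjusted p = 0.00225 by limma). Type H was 218-fold higher than arterial (log2 difference 7.77 ± 0.58, limma adjusted p = 1.04e-05). CD200-high and type H were also higher than the libraries labelled sinusoidal, by log2 differences of 3.93 and 8.08 (limma adjusted p = 0.000422 and 1.69e-06). When endothelial markers were scaled to equal medians, the first turned to -0.57 and the second fell to 2.77. Under the same scaling the log2 difference of type H over arterial fell to 6.01, and both type H differences remained called. Between arterial libraries and those labelled sinusoidal the log2 difference of 0.31 ± 0.58 did not pass (limma adjusted p = 0.822). Without arterial replicate 2, the highest of its group, type H exceeded arterial by 8.60 and CD200-high by 4.46 on the log2 scale. Without arterial replicate 1, the lowest, these were 7.10 and 2.96, and all 4 values remained called.

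Abcc9 followed the same order at the top, with an added step at the bottom. It had 65.0, 76.4 and 44.0 CPM in CD200-high cells, 1147, 866 and 1233 CPM in type H, 14.8, 28.5 and 26.7 CPM in arterial libraries, and 8.08, 2.39 and 9.65 CPM in those labelled sinusoidal. No values of the 4 populations overlapped, with type H at the top and the libraries labelled sinusoidal at the bottom. Mean log2 CPM was 5.91 ± 0.41 in CD200-high cells, 10.06 ± 0.27 in type H, 4.49 ± 0.52 in arterial libraries and 2.52 ± 1.09 in those labelled sinusoidal (SD, n = 3 each). The log2 difference between CD200-high and type H was -4.15 ± 0.48 (limma adjusted p = 0.000157), and type H exceeded arterial by 5.58 ± 0.48 (SE, limma adjusted p = 2.75e-05). CD200-high and type H exceeded the libraries labelled sinusoidal by log2 differences of 3.39 and 7.54 (limma adjusted p = 0.000285 and 6.24e-07). With equal endothelial medians the first turned to -1.11 and the second fell to 2.23. The log2 difference of type H over arterial then fell to 3.82, and both type H differences remained called. CD200-high exceeded arterial by 1.43 ± 0.48, which did not pass (limma adjusted p = 0.0740) but did without sinusoidal replicate 2 (limma adjusted p = 0.0148). Arterial libraries exceeded those labelled sinusoidal by 1.97 ± 0.48 (limma adjusted p = 0.0219), which turned to -1.59 with equal endothelial medians, and the call was lost without arterial replicate 2 or 3 (limma adjusted p = 0.0847 and 0.0870). Sinusoidal replicate 2 was the lowest of its group, and without it the log2 differences of CD200-high, type H and arterial from that group were 2.77, 6.92 and 1.34, all called.

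Macrophage markers, C1qa, C1qb, Adgre1, Vcam1 and Mrc1, summed to 87.7 to 124 CPM in CD200-high cells, 946 to 1413 CPM in type H, 582 to 1238 CPM in arterial libraries and 100 to 123 CPM in those labelled sinusoidal. In type H the sum came mostly from Vcam1 and Mrc1, which endothelial cells can also express, at means of 763 and 427 CPM. C1qa and Adgre1 averaged 2.93 and 1.64 CPM there, against 121 and 24.8 CPM in arterial libraries. The part of macrophage RNA in the level of the channel genes was not tested.

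Of all genes tested, 2.89% were called higher in type H than in each of the other 3 populations, and Kcnj8 and Abcc9 were the members among them. Abcc9 also belonged to the 4.86% of genes called lower in the libraries labelled sinusoidal than in each other population. Within a library, Kcnj8 minus Abcc9 in log2 CPM, not corrected for length, averaged 0.53 ± 0.07 in CD200-high and 0.53 ± 0.19 in type H. It averaged -1.66 ± 1.15 in arterial libraries and -0.003 ± 1.36 in those labelled sinusoidal (SD, n = 3 each). The ratio of the 2 subunit transcripts was thus close to the same level in CD200-high and type H and varied more between replicates where both were low. Per kb of annotated exons, the mean log2 level of Kcnj8 was 5.10 in CD200-high and 9.24 in type H, against 2.85 and 7.0 for Abcc9.

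**Figure D1:**
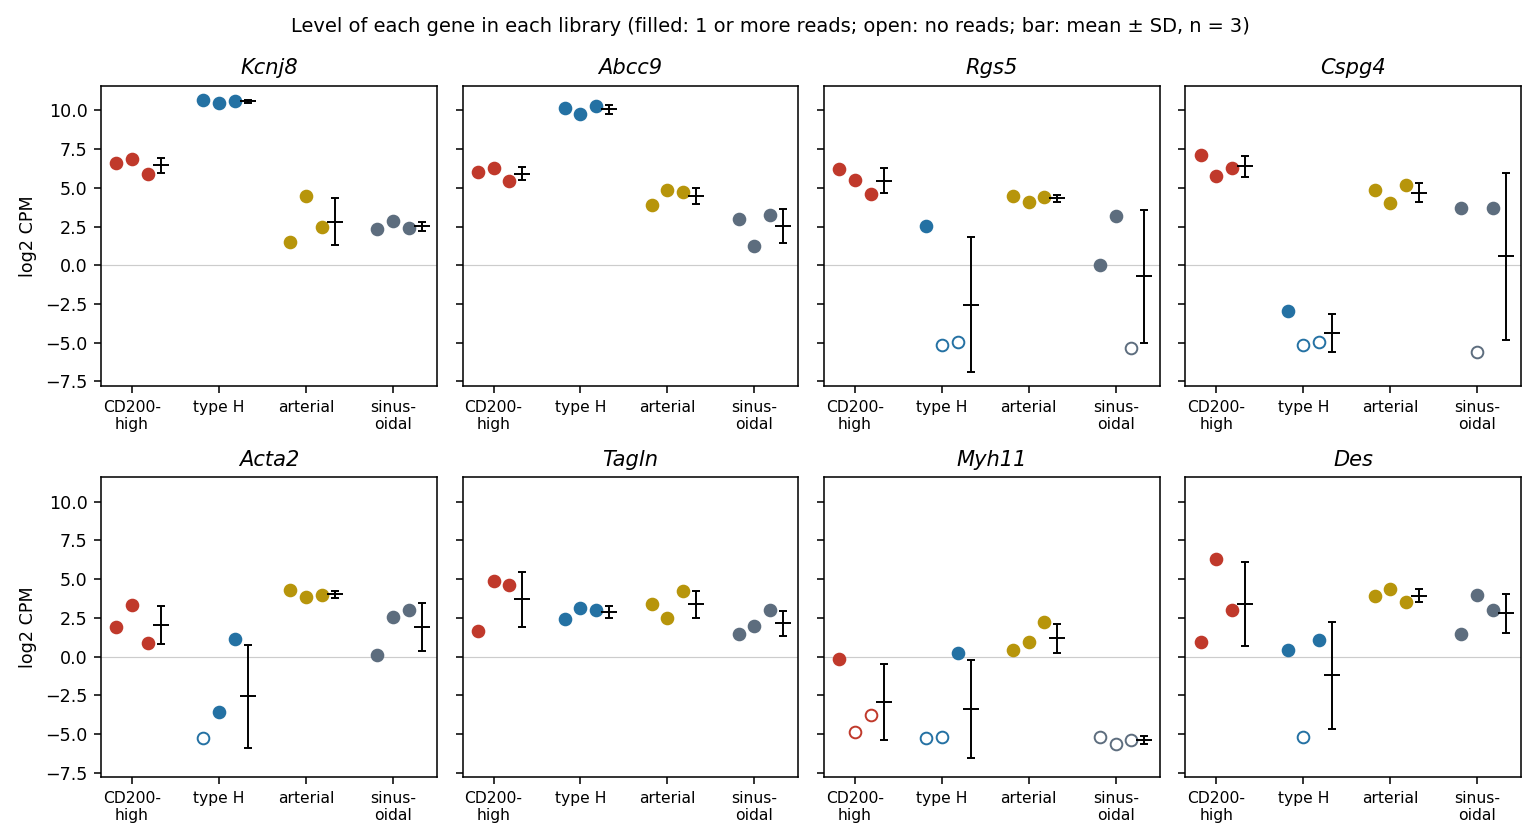
Level of each of the 8 genes in log2 CPM (vertical axis) in the 12 libraries by population (horizontal axis). Filled points are libraries with 1 or more reads, open points libraries with no reads, and bars the mean ± SD of 3 libraries. Kcnj8 and Abcc9 are highest in type H, while Rgs5 and Cspg4 have open points in 2 of the 3 type H libraries.

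Abcc9 overlaps 5330439B14Rik, a gene on the opposite strand, over 158 of its exon bases (1.89%), and the strand counted is not stated in the sources used here. 5330439B14Rik itself had 8.04, 7.22 and 2.95 CPM in CD200-high cells, 99.4, 84.4 and 128 CPM in type H, 0.476, 3.17 and 0.851 CPM in arterial libraries, and 0.334, 0.162 and 0.975 CPM in those labelled sinusoidal. All 3 type H libraries were thus above the 9 others for it too. Reads of the shared bases cannot be assigned to either gene. Cmas, which encodes an enzyme of sialic acid activation, lies nearby on the side of Abcc9 that faces away from Kcnj8. Its mean was 3.77 in CD200-high cells, 2.83 in type H, 3.87 in arterial libraries and 3.96 log2 CPM in those labelled sinusoidal.

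**Figure D2:**
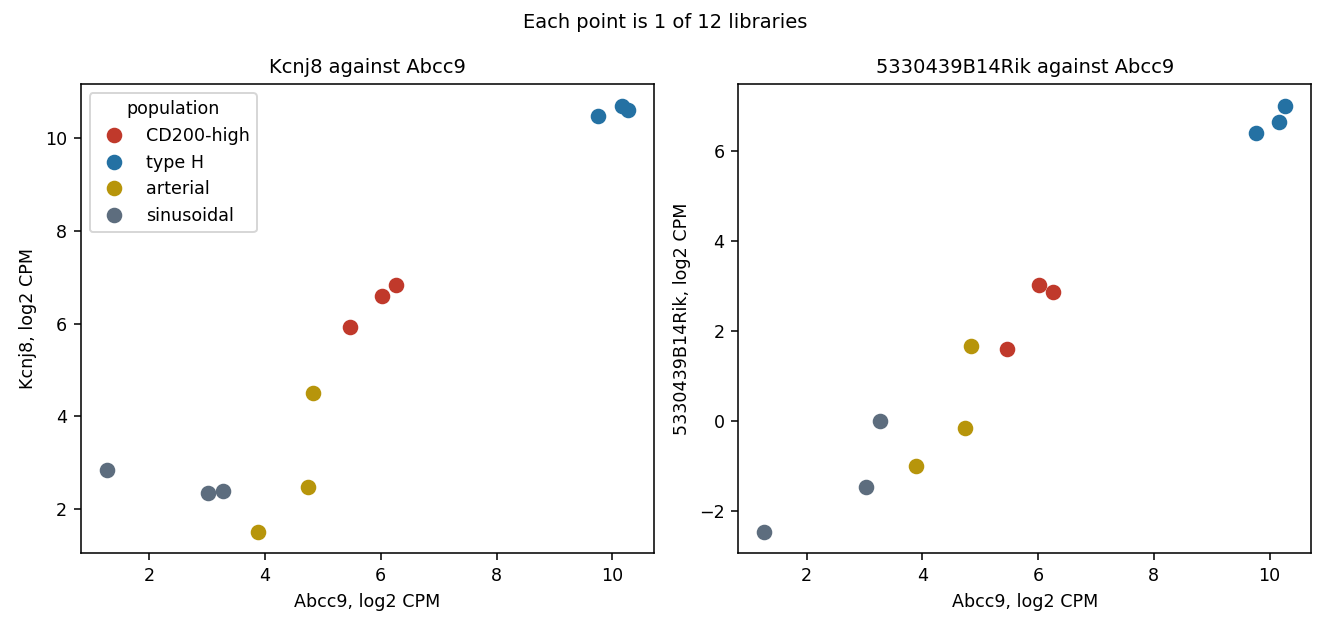
Kcnj8 (left) and 5330439B14Rik (right) against Abcc9, all in log2 CPM, with 1 point per library coloured by population. The 3 type H libraries lie apart at the upper right in both panels, at 9.76 to 10.27 log2 CPM of Abcc9, and CD200-high follows at 5.46 to 6.26.

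Rgs5, a GTPase-activating protein that shortens signals of G protein-coupled receptors and marks pericytes, ran opposite to the channel genes in type H. It had 75.5, 45.0 and 24.5 CPM in CD200-high cells, 5.70, 0 and 0 CPM in type H, 22.6, 17.0 and 21.2 CPM in arterial libraries, and 1.0, 8.91 and 0 CPM in those labelled sinusoidal. All 3 CD200-high and all 3 arterial libraries lay above every library of the other 2 populations. Type H replicate 1, with 111 reads, was the only type H library with any. The fitted log2 difference was 7.99 ± 2.21 for CD200-high over type H (limma adjusted p = 0.0345) and -6.87 ± 2.21 for type H against arterial (limma adjusted p = 0.0469). With libraries at 0 reads, the size of these fitted values depends on the 0.5 read added. The call for CD200-high over type H was lost without any 1 of the 3 CD200-high libraries, type H replicate 2 or 3 or any arterial library (limma adjusted p = 0.0512 to 0.111). That for type H against arterial was lost without any 1 of the same libraries or sinusoidal replicate 1 (limma adjusted p = 0.0579 to 0.14). Without type H replicate 1 the log2 differences were 10.51 and -9.39, without replicate 2 they were 6.67 and -5.55, and without replicate 3 they were 6.78 and -5.66. The difference between CD200-high and the libraries labelled sinusoidal, 6.17 ± 2.21, did not pass (limma adjusted p = 0.0561). It did pass with the mouse number as a block (limma adjusted p = 0.0464), without type H replicate 1 or 2, or without sinusoidal replicate 2 (limma adjusted p = 0.0222, 0.0487 and 0.0264).

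Cspg4, the gene of the surface proteoglycan NG2, showed the same contrast more sharply. It had 139, 53.4 and 78.5 CPM in CD200-high cells, 0.103, 0 and 0 CPM in type H, 28.6, 16.1 and 36.7 CPM in arterial libraries, and 12.8, 0 and 13.2 CPM in those labelled sinusoidal. The 3 type H libraries held 2 reads in all, while CD200-high held 2803 and arterial 1085. The pooled reads were 2320-fold higher in CD200-high cells than in type H (95% exact counting interval 642 to 1.92e+04) and 679-fold higher in arterial than in type H (188 to 5.62e+03). These intervals cover counting error and not the spread between libraries. In the fit, CD200-high exceeded type H (limma adjusted p = 0.0042) and type H was below arterial (limma adjusted p = 0.00811), with log2 differences of 10.75 ± 2.01 and -9.05 ± 2.01. Without type H replicate 1, the log2 differences were 11.45 and -9.75. CD200-high also exceeded the libraries labelled sinusoidal by 5.79 ± 2.01 (limma adjusted p = 0.0497). This call held in 6 of 21 alternatives, and without any 1 of the 3 CD200-high, 3 type H or 3 arterial libraries or sinusoidal replicate 2 it was lost (limma adjusted p = 0.0531 to 0.118). Sinusoidal replicate 2 had no reads of Cspg4, and without it the log2 difference was 2.68, against 7.33 without replicate 1 and 7.36 without replicate 3. Without that same library, type H was below the libraries labelled sinusoidal by a log2 difference of -8.07 (limma adjusted p = 9.94e-05), where the fit with all libraries gave -4.96 ± 2.01 (limma adjusted p = 0.0884). CD200-high lay above arterial in all libraries for Rgs5 and Cspg4, yet the log2 differences of 1.12 and 1.70 did not pass (limma adjusted p = 0.792 and 0.635).

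The fibroblast markers Pdgfra, Dcn, Lum, Pi16 and Dpt moved with Rgs5 and Cspg4. Their sum was 4297 to 7004 CPM in CD200-high cells, 16.1 to 48.4 CPM in type H, 1297 to 1546 CPM in arterial libraries and 171 to 582 CPM in those labelled sinusoidal. Osteoblast markers were likewise highest in CD200-high and lowest in type H. The part of fibroblast and osteoblast RNA in the differences of Rgs5 and Cspg4 was not tested.

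The contractile genes were low throughout, and Acta2 was highest in arterial libraries. Acta2, smooth muscle actin, had 3.79, 10.1 and 1.77 CPM in CD200-high cells, 0, 0.0555 and 2.20 CPM in type H, 19.5, 14.1 and 15.5 CPM in arterial libraries, and 1.06, 5.79 and 8.04 CPM in those labelled sinusoidal. The 3 arterial libraries stood above the 9 others, and type H replicates 1 and 2 held 0 reads and 1 read. Type H was below arterial by a log2 difference of -6.59 ± 1.51 (limma adjusted p = 0.00942), and this call held in 22 of 22 alternatives. Without type H replicate 1 this difference was -5.24 and without replicate 3 it was -8.46. Against the libraries labelled sinusoidal type H was lower by -4.46 ± 1.51 (limma adjusted p = 0.0449) although type H replicate 3 lay within their range. That call was lost without CD200-high replicate 1, type H replicate 1 or 2, any arterial library, or sinusoidal replicate 2 or 3 (limma adjusted p = 0.0539 to 0.147). Its log2 difference was -3.10 without type H replicate 1, -6.32 without type H replicate 3 and -5.35 without sinusoidal replicate 1. CD200-high exceeded type H by 4.62 ± 1.51, which did not pass (limma adjusted p = 0.0674) but did without type H replicate 3 (limma adjusted p = 0.0061). CD200-high lay below arterial in all libraries, by a log2 difference of -1.97 ± 1.51 that did not pass (limma adjusted p = 0.439).

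Myh11, the smooth muscle myosin heavy chain and the most restricted of the contractile genes, was all but absent outside the arterial sort. Its reads were 9, 0 and 0 in CD200-high cells, 0, 0 and 18 in type H, 22, 30 and 44 in arterial libraries and 0 in all 3 labelled sinusoidal. In CPM these came to 0.832 and 1.16 in the CD200-high and type H libraries with reads and to 1.31, 1.86 and 4.68 in arterial libraries. Only in the arterial sort did every library hold reads of Myh11. Mean CPM was at least 18.1-fold higher in arterial libraries than in those labelled sinusoidal, against the mean of their floors at 3 reads per library (limma adjusted p = 0.0244). This call was lost without arterial replicate 2 or 3 or any 1 library labelled sinusoidal (limma adjusted p = 0.063 to 0.0933). Type H against arterial gave a fitted log2 difference of -4.59 ± 1.63 that did not pass (limma adjusted p = 0.0684). It passed without type H replicate 3 (log2 difference -6.42, limma adjusted p = 0.0112) or CD200-high replicate 1 (limma adjusted p = 0.0494). CD200-high against arterial was -4.13 ± 1.63 (limma adjusted p = 0.126).

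Markers of some other marrow cells were also highest in the arterial libraries, where Acta2 and Myh11 were highest. Reticular stroma markers summed to 4298 to 9796 CPM there, against at most 2612 CPM in any other library. Neutrophil markers summed to 16603 to 26815 CPM, against at most 9430 CPM elsewhere, and erythroid markers to 5236 to 11159 CPM, against at most 3346 CPM. Other markers went elsewhere. B cell markers summed to 4689 to 5286 CPM in the libraries labelled sinusoidal, against 816 to 1997 CPM in arterial libraries. Platelet markers were also highest in those labelled sinusoidal, at 2394 to 3269 CPM against 406 to 1334 CPM, and osteoblast markers were highest in CD200-high. The part of any of these cells in the levels of Acta2 and Myh11 was not tested.

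Tagln, the gene of the actin-binding protein SM22 alpha, did not separate the populations. It had 3.05, 28.9 and 24.2 CPM in CD200-high cells, 5.39, 8.83 and 8.08 CPM in type H, 10.3, 5.53 and 19.1 CPM in arterial libraries, and 2.73, 3.85 and 7.99 CPM in those labelled sinusoidal. Values of every pair of populations overlapped, and 0 of 6 comparisons passed limma's test. The widest log2 difference was 1.56 ± 0.87, CD200-high over the libraries labelled sinusoidal (limma adjusted p = 0.208), and it passed without CD200-high replicate 1 (log2 difference 2.59, limma adjusted p = 0.0202). Of the exon bases of Tagln, 62.4% are shared with the opposite-strand gene Gm48529, and 5.43% with Pcsk7. Gm48529 itself had 19.0, 57.2 and 60.2 CPM in CD200-high cells, 8.63, 21.0 and 12.7 CPM in type H, 15.9, 11.8 and 32.2 CPM in arterial libraries, and 6.91, 7.05 and 11.4 CPM in those labelled sinusoidal. Gm48529, like Tagln, was lowest of the CD200-high libraries in replicate 1, and the reads of the shared bases cannot be assigned, so the level of Tagln is uncertain.

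Des was lowest in type H and the most variable member within CD200-high. It had 1.85, 80.2 and 7.82 CPM in CD200-high cells, 1.34, 0 and 2.07 CPM in type H, 15.3, 20.3 and 11.3 CPM in arterial libraries, and 2.67, 15.5 and 7.99 CPM in those labelled sinusoidal. CD200-high replicate 2 alone exceeded all others, and CD200-high replicate 1 lay within the range of type H. Type H was below arterial by a log2 difference of -5.15 ± 1.66 (limma adjusted p = 0.0476). With the mouse number as a block this call was lost (limma adjusted p = 0.0723). It was also lost without CD200-high replicate 3, type H replicate 2, or any 1 arterial library or library labelled sinusoidal (limma adjusted p = 0.0575 to 0.128). Leaving out type H replicates 1, 2 and 3 in turn gave log2 differences of -5.98, -3.17 and -6.29. Of the exon bases of Des, 5.86% are shared with the opposite-strand gene Gm15179.

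Skeletal muscle also makes desmin. Its markers, 5 of 8 in the table, summed to 8.41 to 17.1 CPM in CD200-high cells, with Ckm at 0 reads, and 4.73 to 23.0 CPM in type H. They summed to 15.8 to 53.1 CPM in arterial libraries and 11.7 to 92.2 CPM in those labelled sinusoidal. In CD200-high cells the highest Des value, 80.2 CPM, was above the highest of these sums. The highest Des values in type H, arterial libraries and those labelled sinusoidal were 2.07, 20.3 and 15.5 CPM. Each of these was below the highest sum of its population, and the last 2 lay within the range of the sums. Other smooth muscle markers, 7 of 8 in the table, summed to 130 to 170 CPM in CD200-high cells, 150 to 215 CPM in type H, 266 to 441 CPM in arterial libraries and 379 to 730 CPM in those labelled sinusoidal, where Lmod1 had 0 reads. Platelets contain part of this list, and platelet markers summed to 15.6 to 77.5 CPM in CD200-high cells, 36.6 to 70.9 CPM in type H, 406 to 1334 CPM in arterial libraries and 2394 to 3269 CPM in those labelled sinusoidal. Other pericyte markers, 7 of 8 in the table, summed to 237 to 376 CPM in CD200-high cells, 262 to 418 CPM in type H, 384 to 402 CPM in arterial libraries and 200 to 218 CPM in those labelled sinusoidal. In type H this sum came mostly from Mcam, which endothelial cells also carry, at 235 to 292 CPM. Of the 7 pericyte markers, 2 were higher and 0 lower in CD200-high cells than in type H (13.0% of all genes called). In type H 0 were higher and 4 lower than in arterial libraries (20.7% of all genes). Their median log2 difference was 1.91 for CD200-high over type H and -3.28 for type H over arterial. The part of mural, muscle or platelet RNA in the members' differences was not tested.

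Set against all genes, the members were called most often between type H and arterial. Between CD200-high and type H, 4 of 8 members were called, 2 higher and 2 lower, where 13.0% of all genes were called, 6.66% higher and 6.35% lower. Between CD200-high and arterial 1 member was called, higher, with 12.9% of all genes called, 4.75% higher and 8.15% lower. Between type H and arterial 6 members were called, 2 higher and 4 lower, with 20.7% of all genes called, 7.96% higher and 12.7% lower. Against the libraries labelled sinusoidal, 3 members were called higher in CD200-high (28.7% of all genes called, 14.1% higher and 14.6% lower). For type H 2 were called higher and 1 lower (28.6% of all genes, 13.9% higher and 14.6% lower), and for arterial libraries 2 were called higher (10.2% of all genes, 8.09% higher and 2.14% lower). The median log2 difference of the 8 members was 2.73 for CD200-high over type H, 0.72 for CD200-high over arterial and -4.87 for type H over arterial, while the median of all genes was -0.05, -0.22 and -0.20. The comparisons share libraries and are not independent.

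**Figure D3:**
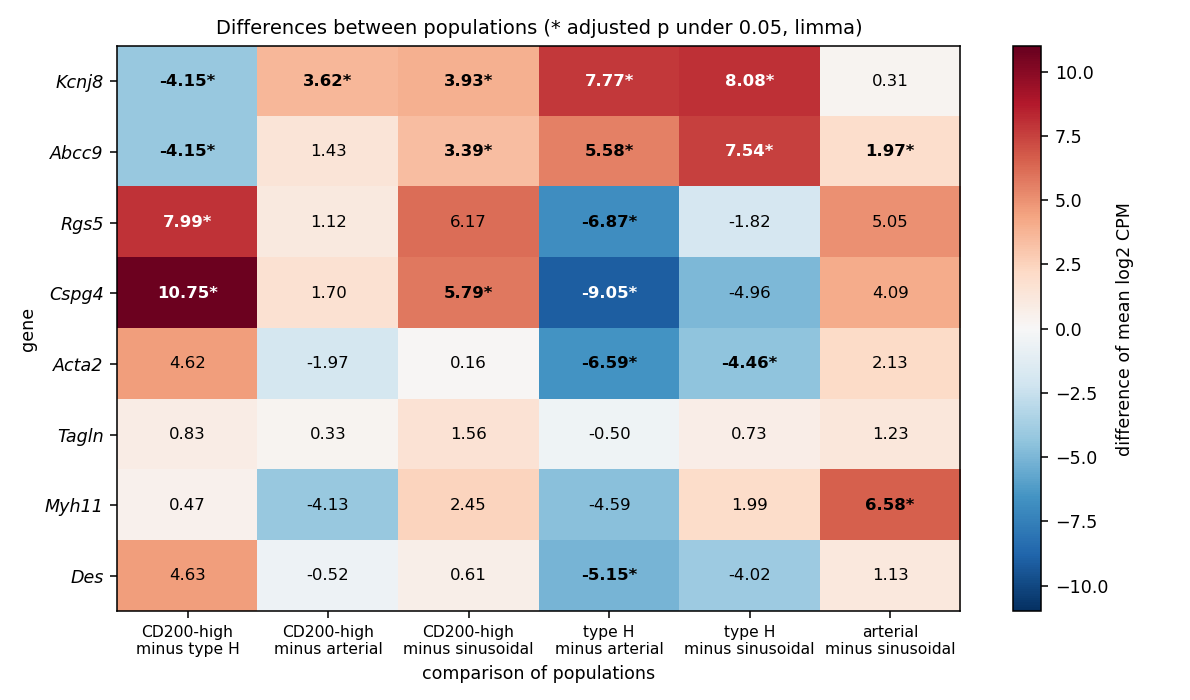
Difference of mean log2 CPM (colour and printed value) for the 8 genes (rows) in the 6 comparisons of populations (columns), where an asterisk marks a limma adjusted p under 0.05. Kcnj8 and Abcc9 are opposite in sign to Rgs5, Cspg4, Acta2 and Des in the columns that set type H against CD200-high or arterial, and Tagln has no asterisk.

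Among other genes of pericytes, more were called lower than higher in type H against arterial libraries, and the reverse against those labelled sinusoidal. The pericyte list held 24 genes, of which 21 were tested. Of these 4 were higher and 1 lower in CD200-high cells than in type H, where 13.0% of all genes were called. Between type H and arterial 1 was higher and 7 were lower in type H (20.7% of all genes called), and between CD200-high and arterial 0 passed (12.9%). Against the libraries labelled sinusoidal, 6 were higher and 0 lower in CD200-high cells, 6 higher and 3 lower in type H, and 6 higher and 0 lower in arterial libraries, with 28.7%, 28.6% and 10.2% of all genes called. The list's median log2 difference was 1.19 for CD200-high over type H and -3.93 for type H over arterial. Heyl, a Notch target, averaged 5.03 ± 1.44 log2 CPM in CD200-high cells, -2.22 ± 3.38 in type H, 6.45 ± 0.70 in arterial libraries and 7.53 ± 0.04 in those labelled sinusoidal. It was higher in CD200-high cells than in type H (limma adjusted p = 0.00327) and lower in type H than in arterial libraries (limma adjusted p = 0.000759).

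Ednrb, Gpr4, Mcam and Art3, which had the smallest adjusted p of the pericyte list, separated the libraries labelled sinusoidal from the rest. Mcam, the adhesion molecule CD146 that endothelial cells also carry, averaged 6.83 ± 0.61 log2 CPM in CD200-high cells, 8.05 ± 0.16 in type H, 5.54 ± 0.32 in arterial libraries and -1.72 ± 2.47 in those labelled sinusoidal. It was called higher in CD200-high cells, type H and arterial libraries than in those labelled sinusoidal (limma adjusted p = 3.83e-05, 1.04e-05 and 0.000386). Ednrb, an endothelin receptor also found on endothelium, averaged 6.64 ± 0.64, 6.01 ± 0.41 and 4.60 ± 0.41 log2 CPM in CD200-high cells, type H and arterial libraries, and -4.61 ± 1.13 in those labelled sinusoidal. Pdgfrb and Notch3, receptors central to pericytes and named here after their values were seen, were found in every population. Pdgfrb averaged 5.67 log2 CPM in CD200-high cells, 4.82 in type H, 7.63 in arterial libraries and 4.04 in those labelled sinusoidal. Notch3 averaged 3.66, 3.04, 4.63 and 2.14 in the same order.

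Smooth muscle genes beyond the members were called in both directions. Of 17 tested contractile genes, 1 was higher and 1 lower in CD200-high cells than in type H (13.0% of all genes called). In type H 1 was higher and 2 were lower than in arterial (20.7%). Between CD200-high and arterial 2 were higher and 1 lower (12.9%). Against the libraries labelled sinusoidal, 3 were higher and 2 lower in CD200-high cells (28.7%). For type H 5 were higher and 3 lower (28.6%), and for arterial libraries 2 were higher and 0 lower (10.2%). Most of these counts lay near the share of all genes. Myl9, a myosin light chain of smooth muscle and platelets, averaged 4.48 ± 1.39 log2 CPM in CD200-high cells, 1.37 ± 3.76 in type H, 7.65 ± 0.25 in arterial libraries and 8.40 ± 0.59 in those labelled sinusoidal. It was lower in type H than in arterial libraries and in those labelled sinusoidal (limma adjusted p = 0.008 and 0.00257). Tpm1, a tropomyosin found in most cells, averaged 9.49 ± 0.16, 8.82 ± 0.21, 8.59 ± 0.13 and 7.92 ± 0.11 log2 CPM in the same order of populations. It was called higher in CD200-high than in each other population. Of 13 tested regulators of smooth muscle genes, 4 were higher and 0 lower in CD200-high cells than in type H (6.66% of all genes higher, 6.35% lower). In type H 3 were higher and 3 lower than in arterial (20.7% of all genes called). Between CD200-high and arterial 1 was higher and 1 lower (12.9%). Against the libraries labelled sinusoidal, 3 were higher and 1 lower in CD200-high cells (28.7%). For type H 2 were higher and 3 lower (28.6%), and for arterial libraries 1 was higher and 1 lower (10.2%). Mef2c, a transcription factor of muscle and endothelium, averaged 9.10 ± 0.20 log2 CPM in CD200-high and 7.47 ± 0.18 in type H (limma adjusted p = 0.000298).

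**Figure D4:**
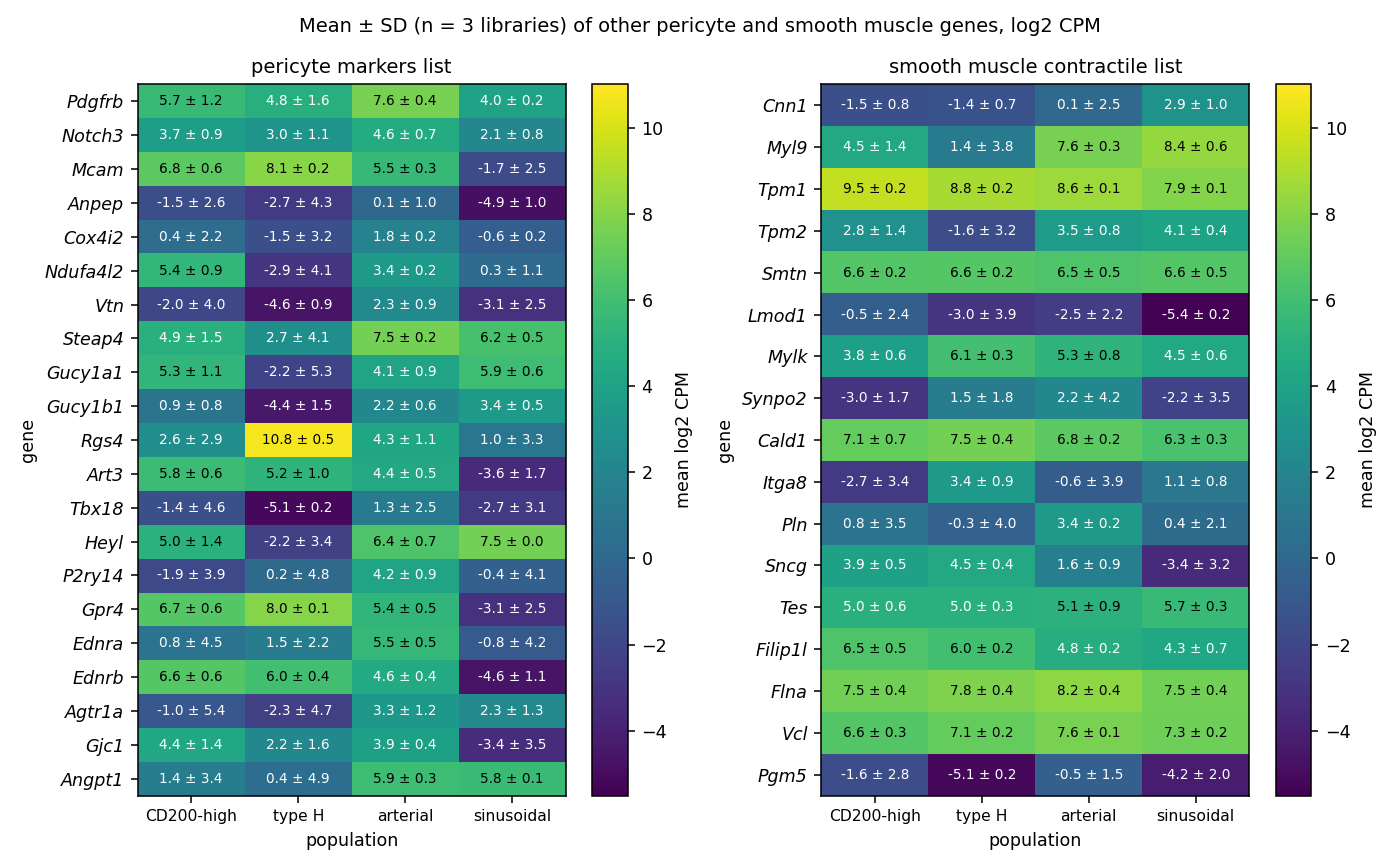
Mean ± SD (n = 3 libraries) of log2 CPM for the tested genes of the pericyte list (left) and the smooth muscle contractile list (right) in the 4 populations (columns). Rgs4 has the brightest cell, at 10.8 in type H, and Heyl and Ndufa4l2 are dark in type H beside brighter cells in the other populations.

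Other inward rectifier potassium channels were mostly scarce, and Kcnj11 and Abcc8, the other pore and receptor of ATP-sensitive channels, were not analysed here. Of 15 listed inward rectifier and sulfonylurea receptor genes, 7 were in the table, namely Kcnj1, Kcnj2, Kcnj5, Kcnj10, Kcnj13, Kcnj14 and Kcnj15. Kcnj14 averaged -3.57 ± 1.38 log2 CPM in CD200-high cells, 3.87 ± 2.23 in type H, -4.0 ± 1.81 in arterial libraries and -5.38 ± 0.23 in those labelled sinusoidal. It was called lower in CD200-high cells than in type H (limma adjusted p = 0.00405) and higher in type H than in arterial (limma adjusted p = 0.00208). Kcnj15 averaged 3.86 ± 1.42, 6.46 ± 0.07, -1.54 ± 2.34 and -2.60 ± 2.69 log2 CPM in the same order, and was called higher in type H than in arterial libraries (limma adjusted p = 0.00278). Kcnj5 averaged 6.04 ± 0.45 log2 CPM in the libraries labelled sinusoidal and below 0 in the other populations. Its arterial mean was -0.64 ± 4.94, where 1 library reached 31.9 CPM and no other held more than 3 reads. Kcnj10 had its highest mean, 3.71 ± 1.5, in arterial libraries. Of the other ABCC transporters, 5 of 9 were in the table, and 0 were called between type H and arterial (20.7% of all genes called). Abcc1, a multidrug transporter, was called lower in CD200-high cells than in type H, at -1.59 ± 4.36 and 4.93 ± 0.70 log2 CPM (limma adjusted p = 0.0215).

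Likeness of pattern was measured as the root mean square difference of log2 values over the 12 libraries, each gene centred on its own mean. Genes ranked numbered 12202 or 12203. The 3 genes most like Kcnj8 were Tfpi, Ackr1 and Flt4, at 0.97, 1.0 and 1.02, and Abcc9 came at rank 8, at 1.16. Tfpi encodes an inhibitor of tissue factor made by endothelium, Ackr1 a chemokine-binding receptor of venules and Flt4 the receptor VEGFR3. Ackr1 averaged 5.83 log2 CPM in CD200-high cells, 11.20 in type H, 3.79 in arterial libraries and 2.80 in those labelled sinusoidal. The 3 genes most like Abcc9 were Nectin2, Nr2f2 and C1qtnf1, at 0.57, 0.59 and 0.73, with Kcnj8 at rank 26. Nr2f2, a transcription factor known for venous endothelium, averaged 3.26 log2 CPM in CD200-high cells, 7.24 in type H, 1.97 in arterial libraries and 0.65 in those labelled sinusoidal.

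The genes most like the other members lay farther away. They were Pllp, Pcolce2 and Pid1 for Rgs5, at 1.30 to 1.58, and Ndrg4, Arhgef19 and Bicc1 for Cspg4, at 1.11 to 1.30. Ndrg4 averaged 7.37 log2 CPM in CD200-high and 4.70 in arterial libraries, with 2 reads in all of type H. Qpct, Ikbke and Cd163 were nearest to Acta2, at 1.22 to 1.24, and Gli1, Thap1 and Zcchc3 to Des, at 1.04 to 1.10. Zc2hc1c, Cyp1b1 and Ccl11 were nearest to Myh11, at 1.16 to 1.63. Utrn, Fam228a and Nsmf were nearest to Tagln, at 0.59 to 0.68, all with little difference between populations. Genes with libraries at 0 reads are alike partly through those libraries, and no member was among the 3 genes nearest to another member.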

How the data were processed

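RNA from 4 sorted populations, 3 libraries each, was sequenced at 150 bp. The authors deposited 1 table of 17362 genes whose values are log2 CPM, computed after adding 0.5 read. Taking the antilog gave whole reads within 0.01 for 100% of values, and the reads given are these. Per the submitters' processing notes, Trimmomatic, STAR, SAMtools, deepTools, featureCounts and R 4.3 were used, and the build named is hg38, a human build, although samples and symbols are mouse. Coordinates given are those of the RefSeq promoter sequences (GRCm38.p6), and exon lengths and overlaps come from GENCODE M21. Settings and strand are not given in the sources used here.

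The members and gene lists were chosen with earlier results of these data known. All 6 comparisons of populations were tested in 1 fit over the 12 libraries with limma 3.58.1 (R 4.3.3, mean-variance trend, no block) on the deposited log2 values, and a Benjamini-Hochberg adjusted p under 0.05 was called. The plan had assumed normalised counts; the log2 values were tested as they stand. Of the genes, 17086 had 10 or more reads, scaled to an effective size of 15.9 M, in 3 or more libraries and were tested. The test was checked on simulated data. For genes with libraries without reads, fitted fold changes can lie below or above those of the CPM values. Cspg4 for CD200-high over type H was 1717-fold in the fit and 2320-fold in pooled reads. Rgs5 for the same comparison was 253-fold in the fit, with mean CPM of 48.3 in CD200-high and 1.90 in type H.

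The 8 members were named in all comparisons, with up to 4 genes of each list with the smallest adjusted p and the 3 genes most like each member among those averaging at least 100 scaled reads in a population. Listed reads ranged from 7.33 to 21.6 M. Between replicates the chi-square per degree of freedom was 52.8 to 124.5, so no library was a copy of another. Floors use 3 reads per library and, like counting intervals, cover counting error only.

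Mouse numbers recur across the populations in the labels, and 1 alternative takes them as a block, although which of the 6 mice gave each library is not given. Deviations of same-numbered libraries correlated at -0.05 to 0.12 over 9219 genes, with 2 of 18 pairs over 0.1. The alternatives were another filter, pseudocount, scaling, test or sample set, the block, and leaving out each library.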

Additional observations from a re-analysis of the deposited data

How the results depend on the processing

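Of 48 results for the members, 19 were called, and 10 of these were called under every alternative run: Kcnj8 and Abcc9 between type H and each of the other 3 populations, with Kcnj8 for CD200-high over arterial, Cspg4 for CD200-high over type H and type H below arterial, and Acta2 for type H below arterial. Scaling the endothelial markers to an equal median, which moved the median of all genes by up to -5.31, turned log2 differences round. For CD200-high over the libraries labelled sinusoidal it gave -0.57 for Kcnj8, -1.11 for Abcc9, -4.34 for Acta2, -2.94 for Tagln, -2.05 for Myh11 and -3.89 for Des. For type H over those it gave -4.58 for Tagln and -3.32 for Myh11, with 7 members called, and for CD200-high over arterial -0.61 for Tagln. For arterial libraries over those labelled sinusoidal it gave -3.25 for Kcnj8, -1.59 for Abcc9, -1.42 for Acta2, -2.33 for Tagln and -2.43 for Des.

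Myh11 for CD200-high over type H became -0.08 with log2(CPM + 1) and -0.028 with quantile normalization, which also gave -0.49 for Kcnj8 in arterial libraries over those labelled sinusoidal. Equal totals of listed reads gave -0.15 for Acta2 in CD200-high over the libraries labelled sinusoidal. Between CD200-high and arterial, 3 members were called with log2(CPM + 1) and 2 without the 3 libraries labelled sinusoidal, an alternative added after seeing the data. Between arterial libraries and those labelled sinusoidal, 1 was called under quantile normalization, with only the 2 populations, without the trend and with voom on the recovered reads. The causes were not tested.

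Leaving out each library in turn gave 3 to 4 members called for CD200-high against type H, 1 to 2 for CD200-high against arterial and 4 to 6 for type H against arterial. Against the libraries labelled sinusoidal it gave 2 to 3 for CD200-high, 2 to 3 for type H and 0 to 2 for arterial libraries. Log2 differences that turned sign ranged from -0.91 to 2.30 for Myh11 (CD200-high over type H), -0.25 to 1.36 for Tagln and -1.98 to 0.73 for Des (CD200-high over arterial). Over the libraries labelled sinusoidal they ranged from -0.72 to 0.75 for Acta2 and -0.85 to 1.86 for Des in CD200-high, -4.34 to 0.12 for Rgs5 in type H and -0.53 to 0.97 for Kcnj8 in arterial libraries.

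Over all genes, equal endothelial medians gave 3341 calls in place of 2204 for CD200-high against arterial and 9527 in place of 3536 for type H against arterial. Against the libraries labelled sinusoidal they gave 14233 in place of 4902 for CD200-high, 15271 in place of 4882 for type H and 12357 in place of 1748 for arterial libraries. Nearly all of these were lower, 3232, 9279, 14031, 15073 and 12138 in that order, and for CD200-high against type H 1774 genes were higher and 329 lower in place of 1138 and 1085. Equal totals of listed reads gave 568 higher and 1737 lower in place of 811 and 1393 for CD200-high against arterial and 1997 and 3629 in place of 2407 and 2495 for CD200-high against the libraries labelled sinusoidal. For arterial libraries against those they gave 1272 and 569, and quantile normalization 1312 and 590, in place of 1383 and 365. With only the 2 populations, which leaves 6 libraries, the counts were 1337 in place of 2223 for CD200-high against type H and 2829 for arterial libraries against those labelled sinusoidal. Leaving out each library gave 1353 to 2458 for CD200-high against arterial and 1019 to 1870 for arterial libraries against those labelled sinusoidal. The replicate block changed 2 of 48 calls, Rgs5 in CD200-high over the libraries labelled sinusoidal (adjusted p = 0.0464) and Des in type H against arterial (adjusted p = 0.0723), and no other call. A value of 0 reads sets only an upper limit, which depends on the depth of the library. The libraries at 0 reads were not always the shallower ones. Sinusoidal replicate 2, with the most listed reads (21.6 M), had 0 reads of Cspg4, where replicates 1 and 3 had 230 and 271. The cause of such 0 values was not tested.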

Other observations

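The relatives of Rgs5 were spread over the populations. Of 13 tested genes of the RGS family, 1 was higher and 1 lower in CD200-high cells than in type H (13.0% of all genes called). In type H 1 was higher and 3 were lower than in arterial (20.7% of all genes). Rgs4 averaged 2.62 ± 2.91 log2 CPM in CD200-high cells, 10.76 ± 0.48 in type H, 4.3 ± 1.09 in arterial libraries and 0.99 ± 3.33 in those labelled sinusoidal (SD, n = 3 each), and was called highest in type H (limma adjusted p = 0.00505, 0.0129 and 0.000638 against CD200-high, arterial libraries and those labelled sinusoidal). Rgs3 had its highest mean in CD200-high cells, 8.54 ± 0.37, with 5.85 ± 0.51 in type H, 6.30 ± 0.32 in arterial libraries and 4.73 ± 0.83 in those labelled sinusoidal. Rgs18, known from platelets and their precursors, averaged 3.55 ± 0.44, 2.12 ± 0.94, 6.77 ± 0.52 and 7.94 ± 0.23 log2 CPM in that order. Platelet markers were also higher in arterial libraries and those labelled sinusoidal than in the other populations, and their part was not tested.

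Intermediate filament genes and relatives of desmin, of which 8 were tested, gave 1 call between CD200-high and type H (13.0% of all genes called). It was Cryab, a chaperone of desmin, at 6.91 ± 0.28 log2 CPM in CD200-high and -2.54 ± 4.47 in type H (limma adjusted p = 0.00226). Nes, nestin, averaged 5.11 ± 0.69 in CD200-high cells, 4.25 ± 0.99 in type H, 3.68 ± 0.04 in arterial libraries and -3.80 ± 0.23 in those labelled sinusoidal. The calponins Cnn3 and Cnn2, paralogs of the smooth muscle gene Cnn1, ran opposite ways in type H. Cnn3 averaged 8.68 ± 0.02 in CD200-high cells, 9.60 ± 0.04 in type H and 7.86 ± 0.19 in arterial libraries, and Cnn2 averaged 9.49 ± 0.23, 7.96 ± 0.19 and 9.48 ± 0.17. Both were called between CD200-high and type H (limma adjusted p = 0.00034 and 4.9e-05).

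Of 15 tested ion channels of vessels, 4 were higher and 0 lower in CD200-high cells than in type H (13.0% of all genes called). In type H 1 was higher and 3 were lower than in arterial (20.7% of all genes). Ano1, a calcium-activated chloride channel of smooth muscle, averaged 7.30 ± 0.74 log2 CPM in CD200-high cells, -3.03 ± 3.80 in type H, 3.53 ± 1.36 in arterial libraries and 3.87 ± 0.07 in those labelled sinusoidal. CD200-high exceeded type H by a log2 difference of 10.34 (limma adjusted p = 0.000702). Kcnn4, a calcium-activated potassium channel, averaged 2.30 ± 0.07, -3.30 ± 1.47, 5.75 ± 0.07 and 6.42 ± 0.16 in that order. Piezo1, a mechanosensitive channel of endothelium, was called higher in type H than in arterial libraries, at 6.39 ± 0.23 and 4.0 ± 0.25 (limma adjusted p = 0.00147). Trpv4 was called higher in CD200-high than in each other population, at 5.52 ± 0.42, against 2.04 ± 0.79 in type H.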
